A study of Mus musculus with 12 samples.

Results

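Ankyrins and spectrins form the membrane skeleton of neurons, and 8 genes of this skeleton were followed through immunoprecipitation of the m6A reader proteins YTHDF1, YTHDF2 and YTHDF3. The 8 genes were Ank2, Ank3, Sptan1, Sptb, Sptbn1, Epb41l1, Epb41l2 and Epb41l3. They were chosen by name and by a rule that uses no measured value, but with earlier results of these data known. All 8 were among the 16820 genes tested out of 55573 in the count table. RNA was sequenced from primary hippocampal neurons of neonate C57BL/6 mice after 14 days in culture. There were 4 groups of 3 libraries each, namely Input (RNA of the cell lysate, no antibody) and RNA immunoprecipitation (RIP) with an antibody against endogenous YTHDF1, YTHDF2 or YTHDF3. The groups had the same strain, genotype and culture time and differed in the antibody. By the study's methods, the 3 RIPs of a replicate came from 1 lysate with 1 Input, pooled from several wells, and the cultures had been treated with an inhibitor of dividing cells against glia. No precipitation with a control antibody was among the 12 libraries, so binding to beads or to an unrelated antibody was not measured.

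Spectrin is a long rod built from an alpha and a beta chain, and rods joined by short actin filaments make a periodic lattice beneath the plasma membrane of axons and dendrites. Ankyrins are adaptors that bind beta spectrin on one side and channels, pumps and adhesion molecules on the other, and they hold sodium channels at the axon initial segment and the nodes of Ranvier. The Epb41 family strengthens the contact between spectrin and actin and ties it to membrane receptors. YTHDF1, YTHDF2 and YTHDF3 are cytoplasmic proteins whose YTH domain binds N6-methyladenosine (m6A), a methyl mark placed in mRNA within a short consensus around the modified adenosine. Enrichment in a RIP was measured here as the level of an mRNA in the precipitate over its level in Input, and it does not say where in the mRNA a protein was bound.

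The 8 genes were long in exonic bases. The exonic length, meaning all annotated exons of a gene joined, had a median of 12.8 kb over the 8 genes, 4.65 kb over the 13376 protein-coding genes tested and 3.93 kb over all genes tested. Ank2 lies on the minus strand of chromosome 3 (GRCm38, 126921612 to 127499350) and has 35360 exonic bases. Ank3 lies on the plus strand of chromosome 10 (69398773 to 70027438) and has 34838. Both ankyrin genes are known for giant neuronal isoforms made through very large exons, and they were as long as or longer than 99.9% of the genes tested. Sptan1 (chromosome 2, plus strand, 29965560 to 30031451), Sptb (chromosome 12, minus strand, 76580488 to 76710547) and Sptbn1 (chromosome 11, minus strand, 30099395 to 30268175) had 13362, 12147 and 17492 exonic bases. Epb41l1 (chromosome 2, plus strand, 156420909 to 156543214), Epb41l2 (chromosome 10, plus strand, 25359798 to 25523519) and Epb41l3 (chromosome 17, plus strand, 69075683 to 69289989) had 11530, 11843 and 11919. No other annotated gene shared exonic bases with any of the 8 on the same strand, and reads had been counted by strand.

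The letters GGACT are a common spelling of the m6A consensus, with the methylated adenosine in the middle. They were searched for on the sense strand of the longest complete coding transcript of each gene (GENCODE M21, GRCm38), where GGACT cannot overlap itself. These transcripts ran from 4073 bases for Epb41l3 to 12413 for Ank2. That of Ank3 had 7404 bases, out of 34838 exonic bases, and exons outside the chosen transcript were not searched. Of 13214 protein-coding transcripts searched in this way, 92% held at least 1 copy, and all 8 transcripts of the membrane skeleton did. The Ank2 transcript held 17 copies and that of Sptb held 15, as many as or more than 99.4% and 99.0% of all transcripts, whereas that of Epb41l1 held 3. Per kilobase the 8 transcripts ranged from 0.46 to 1.44 copies with a median of 1.02, against a median of 1.04 over all transcripts. The copy nearest the stop codon is printed for each gene, because m6A is known to be dense around stop codons. Each line gives 29 bases of the transcript from 5′ to 3′ with GGACT in capitals.

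Ank2: aaattcctatcaGGACTctccccacttta
Ank3: gtcagagcctaaGGACTtgagaaacagtg
Sptan1: agtgagctctgaGGACTatggcagagacc
Sptb: gctgggctccagGGACTggaggtccagct
Sptbn1: tgagttgggacaGGACTatgagcatgtca
Epb41l1: ggaggctgaggtGGACTtcacggttattg
Epb41l2: cagagactctctGGACTggagaattaaga
Epb41l3: aaagtctcaactGGACTacagtttcatag

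The windows of Ank2 (chr3:126942355-126942383, minus strand, exon 38), Sptan1 (chr2:30019942-30019970, plus strand, exon 41), Sptbn1 (chr11:30118293-30118321, minus strand, exon 25) and Epb41l1 (chr2:156525060-156525088, plus strand, exon 15) lie in coding sequence. That of Ank3 is also coding and runs across the junction of exons 40 and 41 (chr10:70004979-70008793, plus strand, intron included). Those of Sptb (chr12:76582938-76582966, minus strand, exon 36), Epb41l2 (chr10:25522945-25522973, plus strand, exon 20) and Epb41l3 (chr17:69289225-69289253, plus strand, exon 22) lie in the 3′ UTR. The distance to the stop codon ran from 273 bases for Sptb to 2110 bases for Sptan1. A copy within 200 bases of the stop codon was found in 39.4% of all transcripts and in 0 of these 8. The 3′ UTR of the Sptan1 transcript had only 88 bases, which cut short the stretch searched past its stop codon. Other isoforms could give other distances. A match describes letters only and is not a mapped m6A site.

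All 8 mRNAs were present in Input at levels well above the limit for testing, with at least 390 reads each per library. Levels are given as CPM, the count of a gene relative to the TMM-scaled library total, and between genes as RPKM, which is CPM divided by exonic length in kb. On the RPKM scale, Sptan1 stood at 94.9 ± 7.15 (SD, n = 3) and Sptbn1 at 78.3 ± 9.55, the 98.8th and 98.4th percentile of protein-coding genes. The chains of the brain spectrin rod, alpha II from Sptan1 and beta II from Sptbn1, were thus the most abundant of the 8 per length, and their ranges over libraries did not overlap. Ank2, which encodes ankyrin-B of the axon shaft, followed at 38.02 ± 5.39 RPKM, and Epb41l1, the most neuronal of the Epb41 genes, at 27.7 ± 5.93 RPKM, with overlapping ranges. Ank3, which encodes ankyrin-G of the axon initial segment, stood at 17.5 ± 1.91 RPKM. Epb41l3, whose protein sits beside the nodes of Ranvier and at synapses, stood at 8.35 ± 2.53 RPKM. Sptb, the beta chain first known from red blood cells and also made by neurons, was at 7.96 ± 2.41 RPKM, and these last 2 genes could not be ordered beyond their spread. Epb41l2, which is widely made outside neurons as well, was lowest at 3.53 ± 0.884 RPKM, and its libraries lay below all libraries of the other 7 genes. The use of single isoforms was not measured, and a length that joins all exons gives a low RPKM where shorter isoforms are made.

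Total counts per library ran from 6020072 to 38909592, and Spearman correlations between replicates from 0.935 to 0.983. The 9 neuronal markers were all present, with summed levels of 2664 to 4285 CPM in Input, 4404 to 7283 CPM with YTHDF1, 1813 to 2931 CPM with YTHDF2 and 3021 to 6063 CPM with YTHDF3. Every YTHDF1 library was thus above every Input library in this sum. By the rule for calls given below, however, 1 of the 9 markers was enriched with YTHDF1 and 0 depleted, where 27.5% and 26.1% of all genes were. The median log2 fold change of the 9 was -0.08, against 0.02 over all genes, so the sum does not stand for the list. The part of neuronal RNA in the results for the 8 mRNAs was not tested. The 5 astrocyte markers summed to 251, 1144 and 2428 CPM in Input replicates 1, 2 and 3 and to 184, 733 and 1437 CPM in the same replicates of the YTHDF3 RIP. They ranged from 253 to 1131 CPM in the YTHDF1 RIP and from 548 to 1241 CPM in the YTHDF2 RIP, so the libraries differed widely in astrocyte RNA. Summed markers of oligodendrocytes reached at most 36.1 CPM in a library, of endothelial cells 21.05 CPM, of microglia 4.83 CPM and of red blood cells 2.47 CPM.

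The 8 mRNAs together took 0.814 ± 0.0718% of the counts on protein-coding genes in Input (n = 3). Their share was 2.15 ± 0.283% with YTHDF1, 1.41 ± 0.106% with YTHDF2 and 1.61 ± 0.112% with YTHDF3, and every RIP library lay above every Input library. The share was carried by Ank2, Ank3, Sptan1 and Sptbn1, whose levels in CPM were above those of the other 4 genes in every library. In bulk RNA of this kind, fewer cells of a type and less RNA per cell cannot be told apart where replicates differ. By the study's methods, a RIP and its Input came from 1 lysate.

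**Figure D1:**
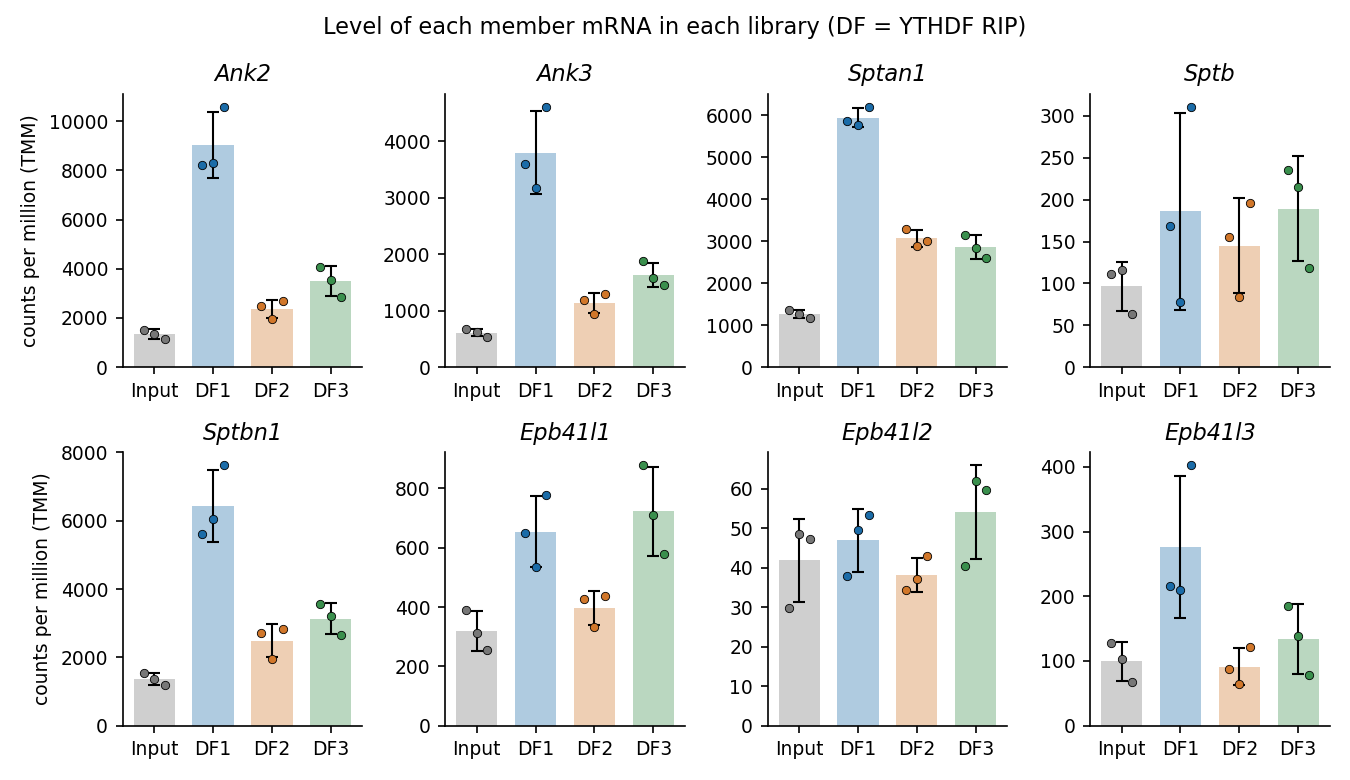
Levels of the 8 mRNAs in CPM (y axis, TMM scaling, from 0, a scale of its own for each gene) in Input and the RIPs of YTHDF1 to YTHDF3 (DF1 to DF3). Points are libraries, bars means and error bars SD (n = 3). Ank2, Ank3, Sptan1 and Sptbn1 are highest in all 3 YTHDF1 libraries, while the libraries of Sptb and Epb41l2 overlap between the YTHDF1 RIP and Input.

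The question of the first comparison was which of these mRNAs were recovered with YTHDF1 beyond their level in Input. In the YTHDF1 RIP, 6 of the 8 mRNAs were enriched and none was depleted, where enriched means a log2 fold change of 0.32 or more with an adjusted p (Benjamini-Hochberg, edgeR's quasi-likelihood test) of 0.05 or less, and depleted the same below 0. Of all 16820 genes tested, 27.5% were enriched and 26.1% depleted by the same rule. The median log2 fold change of the 8 was 1.85, against 0.02 over all genes. In the same 6 mRNAs every YTHDF1 library lay above every Input library, which held for 28% of all genes. In a fit of these 6 libraries alone with the replicate number as a block, 4 were enriched, where 14.2% of all genes were. Epb41l1 (adjusted p = 0.107) and Epb41l3 (adjusted p = 0.0624) were then not called. Over all genes, the deviations from the group means of same-numbered YTHDF1 and Input libraries had correlations of 0.0895, -0.269 and -0.329.

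Ank2 had the highest fold change of the 8. Its level was 1529, 1356 and 1148 CPM in Input and 8214, 8284 and 10597 CPM in the YTHDF1 RIP. The lowest YTHDF1 library was several times the highest Input library, and the log2 fold change was 2.75 ± 0.25 (SE, adjusted p = 1.097e-05). Ank3 gave a similar picture, with 676, 615 and 543 CPM in Input and 3603, 3180.2 and 4615 CPM in the YTHDF1 RIP. Its log2 fold change was 2.64 ± 0.23 (adjusted p = 9.15e-06). Among the log2 fold changes of all genes tested, Ank2 stood at percentile 97.5 and Ank3 at percentile 97.1.

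Both chains of the brain spectrin rod were enriched as well. Sptan1 was at 1368, 1259 and 1177 CPM in Input and at 5854, 5775 and 6207 CPM in the YTHDF1 RIP, a log2 fold change of 2.23 ± 0.20 (adjusted p = 9.10e-06). Sptbn1 was at 1533, 1377 and 1199.7 CPM in Input and at 5626, 6065 and 7633 CPM in the YTHDF1 RIP, a log2 fold change of 2.23 ± 0.25 (adjusted p = 3.46e-05). The libraries of the 2 groups were far apart for both genes. Sptb, the paralog of Sptbn1, was not called, with 111, 116 and 63.1 CPM in Input and 169, 78.2 and 311 CPM in the YTHDF1 RIP. The 3 YTHDF1 libraries of Sptb spread more widely around their mean than those of any other member, 1 of them lay within the Input range, and the log2 fold change was 0.94 with a 95% interval of -0.10 to 1.99 (adjusted p = 0.117). Without YTHDF1 replicate 2 its log2 fold change was 1.23 and passed (adjusted p = 0.0266), and without YTHDF1 replicate 3 it was 0.27 (adjusted p = 0.655).

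The Epb41 genes had lower log2 fold changes than the ankyrins, a difference between genes that was not tested. Epb41l3 was at 128, 103 and 67.8 CPM in Input and at 216, 210.2 and 403 CPM in the YTHDF1 RIP (log2 fold change 1.47 ± 0.39, adjusted p = 0.00730), and replicate 3 was the high library. Epb41l1 was at 391, 313 and 255 CPM in Input and at 651, 536 and 777 CPM in the YTHDF1 RIP (log2 fold change 1.03 ± 0.24, adjusted p = 0.00342). Epb41l2 was at 29.7, 48.4 and 47.3 CPM in Input and at 37.9, 49.6 and 53.2 CPM in the YTHDF1 RIP. The groups of Epb41l2 overlapped, and the interval of its log2 fold change ran from -0.35 to 0.68 (adjusted p = 0.572). In Input, its low library was replicate 1, which also had the lowest sum of astrocyte markers (251 CPM), and the part of astrocyte RNA in its level was not tested.

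**Figure D2:**
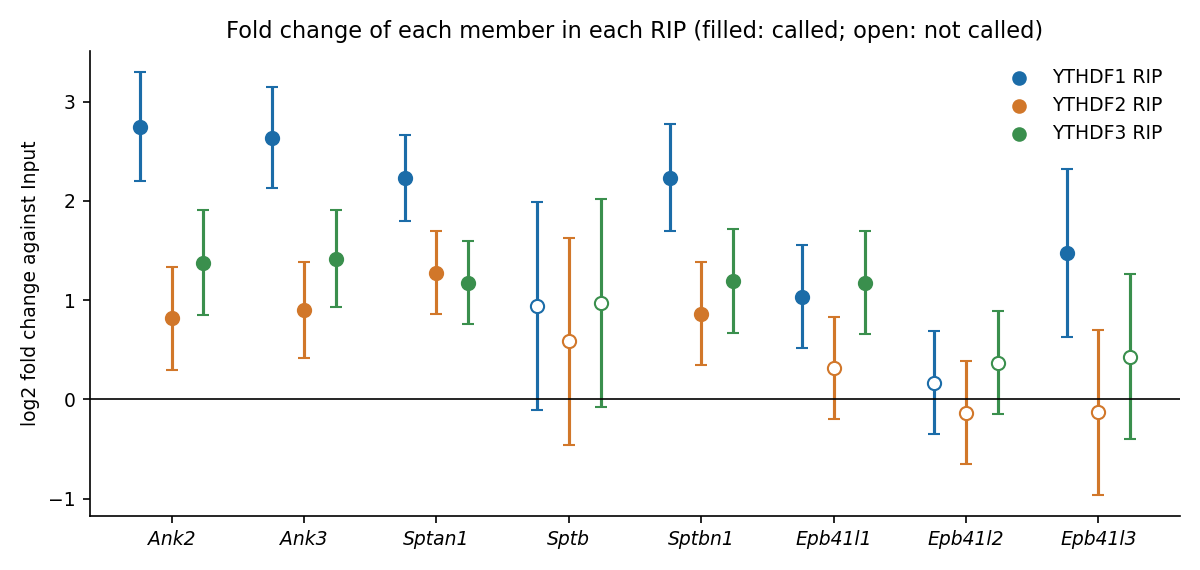
Log2 fold change against Input (y axis) of each of the 8 mRNAs in the YTHDF1, YTHDF2 and YTHDF3 RIPs. Points are estimates of the model fitted to all 12 libraries (3 per group), bars their 95% intervals, and filled points were called (log2 fold change of 0.32 or more in size, adjusted p of 0.05 or less). The YTHDF1 points of Ank2, Ank3, Sptan1 and Sptbn1 lie between 2.23 and 2.75, and no point of Epb41l2 is filled.

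In the YTHDF2 RIP, 4 of the 8 mRNAs were enriched, Ank2, Ank3, Sptan1 and Sptbn1, and none was depleted. Of all genes tested 16.1% were enriched and 19.3% depleted. The median log2 fold change of the 8 was 0.70, against 0.02 over all genes, and in the same 4 mRNAs every YTHDF2 library lay above every Input library, which held for 25.5% of all genes.

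Sptan1, the alpha chain, led with 3301, 2891 and 3008 CPM in the YTHDF2 RIP and a log2 fold change of 1.27 ± 0.19 (adjusted p = 0.000693). Ank3 was at 1184, 939 and 1293 CPM (log2 fold change 0.90 ± 0.22, adjusted p = 0.00904). Sptbn1 was at 2700.1, 1940.1 and 2835 CPM (log2 fold change 0.86 ± 0.24, adjusted p = 0.0154). Ank2 was at 2470.1, 1970.3 and 2674 CPM (log2 fold change 0.82 ± 0.24, adjusted p = 0.0199), and replicate 2 was the lowest YTHDF2 library for all 4 of these mRNAs. The calls of Ank2 and Sptbn1 depended on single libraries. Both were lost without Input replicate 3 (adjusted p = 0.0819 and 0.0647), without YTHDF2 replicate 1 or without YTHDF2 replicate 3, and each time 2 enriched mRNAs were left. Ank2 alone was lost without Input replicate 2 (adjusted p = 0.0588). In a fit of these 6 libraries alone with the replicate number as a block, 2 mRNAs were enriched, where 11.9% of all genes were. These were Sptan1 (adjusted p = 0.0183) and Ank3 (adjusted p = 0.0439), and Ank2 (adjusted p = 0.0732) and Sptbn1 (adjusted p = 0.0686) were not called. The deviations of same-numbered YTHDF2 and Input libraries from their group means had correlations of 0.186, -0.326 and -0.318.

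The other 4 mRNAs overlapped with Input in the YTHDF2 RIP. Sptb was at 155, 83.7 and 196 CPM, with an interval of the log2 fold change from -0.46 to 1.63. Epb41l1 was at 426, 331 and 436 CPM (interval -0.20 to 0.83), Epb41l2 at 34.3, 37.1 and 42.9 CPM (interval -0.65 to 0.39) and Epb41l3 at 87.7, 64.0 and 121 CPM (interval -0.96 to 0.70). These intervals leave room for changes in either direction.

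In the YTHDF3 RIP, 5 of the 8 mRNAs were enriched, the 4 named for YTHDF2 and Epb41l1, and none was depleted. Of all genes tested 16.7% were enriched and 23.2% depleted. The median log2 fold change of the 8 was 1.18, against 0.05 over all genes. Every YTHDF3 library lay above every Input library in 6 mRNAs, these 5 and Sptb, which held for 26.8% of all genes.

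Ank3 was at 1871, 1571 and 1456 CPM in the YTHDF3 RIP (log2 fold change 1.42 ± 0.22, adjusted p = 0.000493) and Ank2 at 4076, 3547 and 2855 CPM (log2 fold change 1.38 ± 0.24, adjusted p = 0.000932). They stood at percentiles 98.5 and 98.1 of the log2 fold changes of all genes. Sptbn1 was at 3549, 3215 and 2649 CPM (1.20 ± 0.24, adjusted p = 0.00217) and Sptan1 at 3158, 2829 and 2599 CPM (1.17 ± 0.19, adjusted p = 0.000593). Epb41l1 was at 879, 711 and 578 CPM (log2 fold change 1.18 ± 0.24, adjusted p = 0.00232). For all 5, replicate 1 was the highest library and replicate 3 the lowest, in Input as well as in the YTHDF3 RIP. Sptb was at 235, 215 and 118 CPM (0.97, interval -0.08 to 2.02, adjusted p = 0.131), Epb41l3 at 186, 139 and 78.4 CPM (0.43, interval -0.40 to 1.26) and Epb41l2 at 40.3, 62.0 and 59.7 CPM (0.37, interval -0.15 to 0.89).

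Replicates of YTHDF3 and Input with the same number deviated together, which the model of 12 libraries does not use. In a fit of these 6 libraries alone with the replicate number as a block, all 8 mRNAs were enriched, and 36.5% of all genes were. The log2 fold changes were then 1.01 ± 0.09 for Sptb (adjusted p = 1.31e-09), 0.45 ± 0.09 for Epb41l3 (adjusted p = 0.000157) and 0.44 ± 0.09 for Epb41l2 (adjusted p = 0.000267). Within each replicate number, the YTHDF3 library of these 3 mRNAs was higher than its Input library. In the block fit of all 12 libraries 5 mRNAs were enriched, where 2783 of all 16820 genes were.

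Exonic length went with enrichment across all genes. The Spearman correlation between exonic length and log2 fold change over the 16820 genes was 0.463 for YTHDF1, 0.384 for YTHDF2 and 0.528 for YTHDF3. Genes are not independent replicates, and the value is given as a description. A loess curve through all genes placed a gene of the length of Ank2 at a log2 fold change of 2.07 for YTHDF1, 0.65 for YTHDF2 and 0.91 for YTHDF3. Ank2 and Ank3 were each as long as or longer than 99.95% of the genes tested, so few genes fix the curve at their lengths. At the length of Sptan1 the curve lay at 1.13, 0.45 and 0.64, and at the length of Epb41l2 at 1.01, 0.42 and 0.59. Genes with a large exonic length were thus higher as a class in all 3 RIPs. The lengths of the mRNAs themselves were not used.

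**Figure D3:**
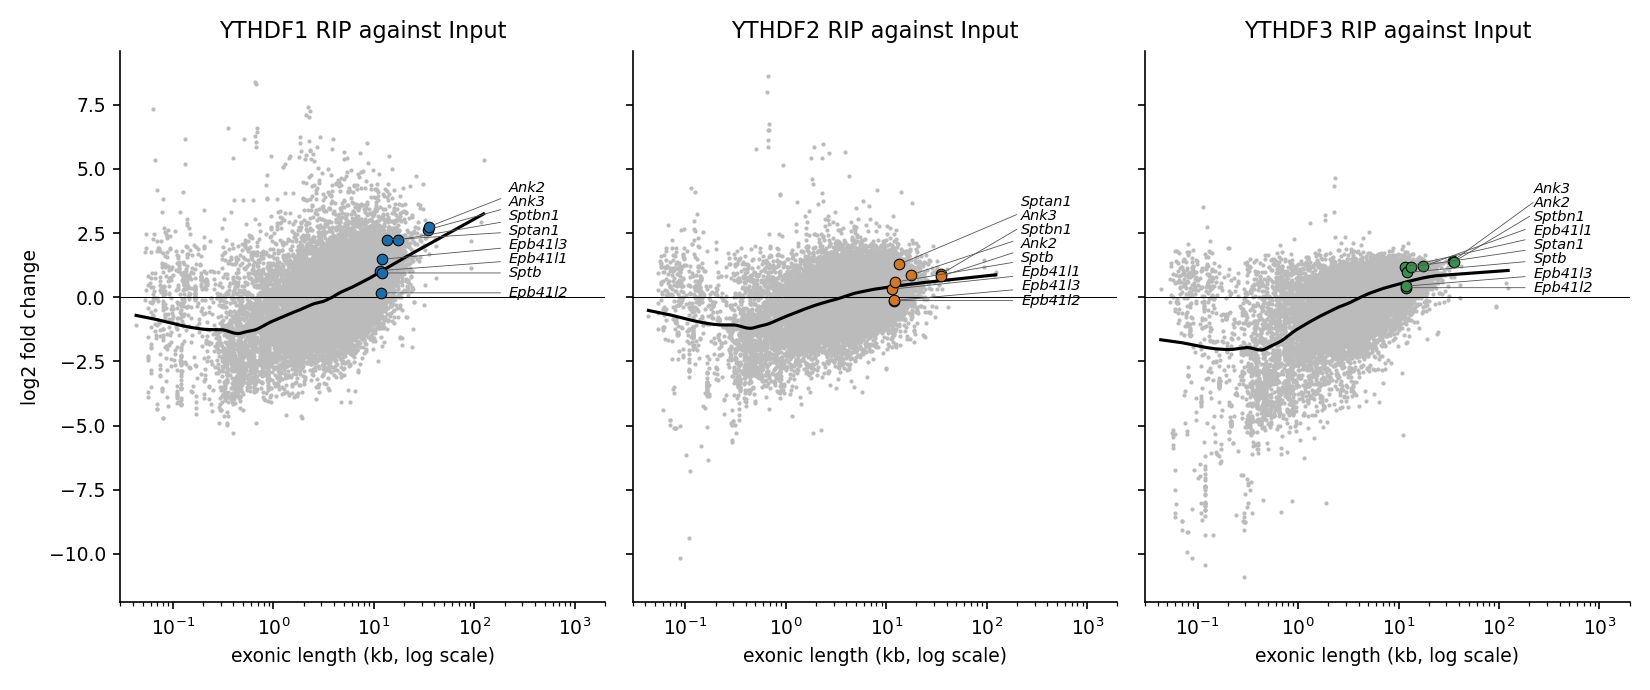
Log2 fold change against Input (y axis) by exonic length in kb (x axis, log scale) for the YTHDF1, YTHDF2 and YTHDF3 RIPs. Grey points are the 16820 genes tested, the black line is the loess curve through them and coloured points are the 8 mRNAs. In the YTHDF1 panel Ank2 lies at 2.75, above the curve, which is at 2.07 at its length, and Epb41l2 lies at 0.17, below the curve at 1.01.

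With the curve of each library taken out in the model, 4 of the 8 mRNAs remained enriched with YTHDF1, where 22.4% of all genes were. These were Sptan1 (log2 fold change 1.101 ± 0.17, adjusted p = 0.000357), Sptbn1 (0.83 ± 0.18, adjusted p = 0.00263), Ank2 (0.67 ± 0.16, adjusted p = 0.00541) and Ank3 (0.57 ± 0.16, adjusted p = 0.0123). Sptan1 in place of Ank2 then had the highest value, an order that rests on a curve with few genes at the length of Ank2. Epb41l1 (0.04 ± 0.22) and Epb41l3 (0.43 ± 0.34) were no longer called, and Epb41l2 was depleted at -0.85 ± 0.22 (adjusted p = 0.00778), as were 24.8% of all genes. For YTHDF2, 1 mRNA remained, Sptan1 at 0.83 ± 0.17 (adjusted p = 0.00427), where 13.2% of all genes were enriched. For YTHDF3, 3 remained, Sptan1 (0.53 ± 0.17, adjusted p = 0.0322), Ank3 (0.51 ± 0.16, adjusted p = 0.0312) and Ank2 (0.46 ± 0.16, adjusted p = 0.0469), where 15.5% of all genes were enriched. With the replicate number as a block beside the curve, 3 were again enriched with YTHDF3, where 15.3% of all genes were, but the genes differed. Ank3 and Sptan1 were called, Ank2 was not (0.47 ± 0.17, adjusted p = 0.0583) and Epb41l1 was (0.60 ± 0.19, adjusted p = 0.0345). Without or with the block, Sptan1 was the single mRNA of the 8 that stayed enriched in all 3 RIPs. What sets the curve was not tested.

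**Figure D4:**
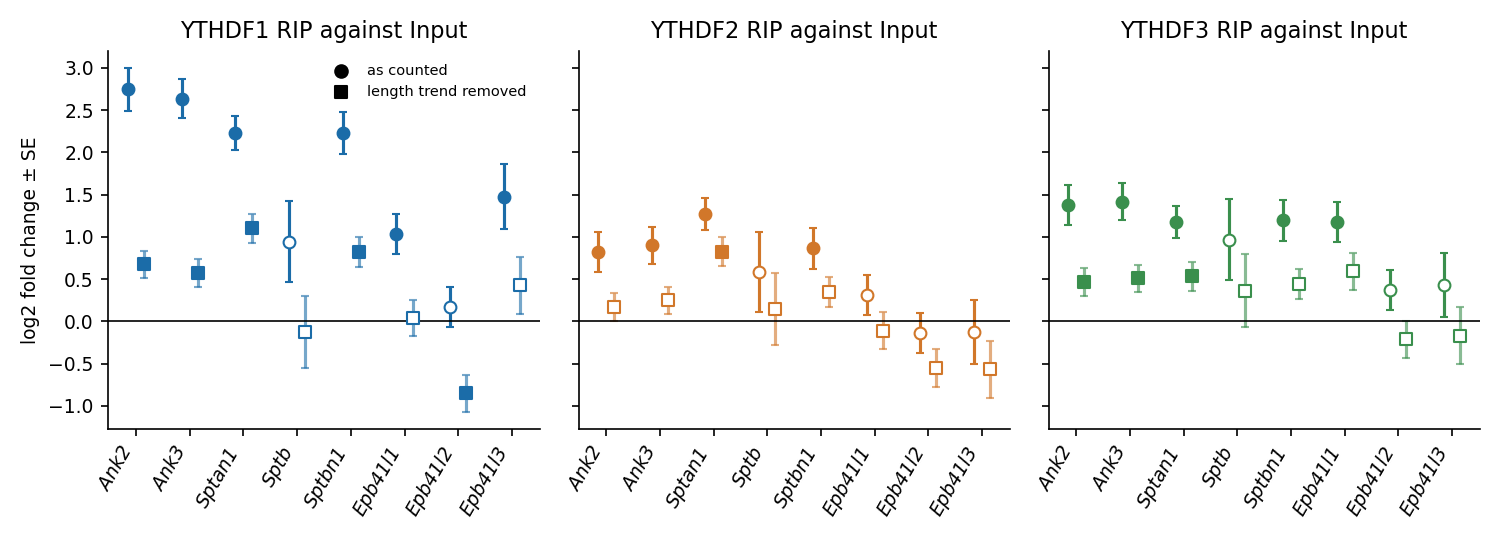
Log2 fold change against Input (y axis, ± SE, 3 libraries per group) of the 8 mRNAs as counted (circles) and with the length curve taken out (squares), for each RIP. Filled symbols were called. With YTHDF1, Ank2 goes from 2.75 to 0.67 and Sptan1 from 2.23 to 1.101, and Epb41l2 goes from 0.17 to -0.85.

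The RIPs were next compared with each other, to ask whether one YTHDF protein recovered more of an mRNA than another. A difference was called when it was a doubling or more and its adjusted p was 0.05 or less. Between YTHDF1 and YTHDF2, 4 of the 8 mRNAs were higher with YTHDF1 and none lower, where 11.4% of all genes were higher and 6.13% lower. These were Ank2 (log2 difference 1.93 ± 0.24, adjusted p = 0.000213), Ank3 (1.74 ± 0.23, adjusted p = 0.000243), Epb41l3 (1.60 ± 0.39, adjusted p = 0.00970) and Sptbn1 (1.37 ± 0.24, adjusted p = 0.00152). Every YTHDF1 library was above every YTHDF2 library for these 4 and for Sptan1 and Epb41l1, and for 20.6% of all genes. The differences of Sptan1 and Epb41l1, 0.96 ± 0.19 and 0.72 ± 0.24, were under a doubling. Without YTHDF1 replicate 3 the difference of Epb41l3 fell to 1.15 and was not called. The interval for Sptb ran from -0.68 to 1.40 and that for Epb41l2 from -0.22 to 0.82.

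Between YTHDF1 and YTHDF3, 4 mRNAs were higher with YTHDF1 and none lower, where 11% of all genes were higher and 3.62% lower. These were Ank2 (log2 difference 1.37 ± 0.24, adjusted p = 0.00224), Ank3 (1.22 ± 0.22, adjusted p = 0.00284), Sptan1 (1.05 ± 0.19, adjusted p = 0.00266) and Sptbn1 (1.04 ± 0.24, adjusted p = 0.00961). The differences of Sptan1 and Sptbn1 were close to a doubling, and 2 mRNAs were called, Ank2 and Ank3, without YTHDF1 replicate 2 or YTHDF3 replicate 3, and 1, Ank2, without YTHDF1 replicate 3. With DESeq2 2 were called, where 1845 of all 16820 genes were higher and 786 lower. In a fit of these 6 libraries alone with the replicate number as a block 0 were called, where 1.95% of all genes were higher. Ank2 then stood at 1.18 ± 0.45 (adjusted p = 0.217). The deviations of same-numbered YTHDF1 and YTHDF3 libraries from their group means had correlations of 0.106, -0.341 and -0.351. Epb41l1 was at -0.14 with an interval of -0.66 to 0.37, Epb41l2 at -0.20 with an interval of -0.72 to 0.31 and Sptb at -0.023 with an interval of -1.06 to 1.01.

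Between YTHDF2 and YTHDF3 no mRNA of the 8 was called, where 3.97% of all genes were higher with YTHDF2 and 1.17% lower. At an unadjusted p under 0.05, 3 were lower with YTHDF2, as were 9.63% of all genes. These were Epb41l1 (log2 difference -0.86 ± 0.24, adjusted p = 0.0463, under a doubling), Ank2 (-0.56 ± 0.24, adjusted p = 0.167) and Ank3 (-0.52 ± 0.22, adjusted p = 0.166). In these 3 every YTHDF2 library was below every YTHDF3 library, which held for 14.1% of all genes. DESeq2 also called none of the 8, and it called 7.75% of all genes. Sptan1 was at 0.10 with an interval of -0.31 to 0.51. With the length curve taken out, edgeR called 0 of the 8 mRNAs in any of the 3 comparisons between RIPs, where it called 16.6% of all genes for YTHDF1 against YTHDF2, 12.9% for YTHDF1 against YTHDF3 and 4.39% for YTHDF2 against YTHDF3. An unadjusted p under 0.05 was then found for 3, 3 and 1 of the 8, and for 36.6%, 33.7% and 23.6% of all genes. The log2 difference of Ank2 was 0.51 between YTHDF1 and YTHDF2 and 0.21 between YTHDF1 and YTHDF3.

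Ratios between 2 mRNAs of the same library do not depend on the scaling between libraries, and they were used to compare paralogs and partner chains. Each RIP was set against Input with a two-sided exact permutation test of 3 libraries against 3, for which 0.1 is the smallest possible p, so no ratio could pass 0.05. An exact test of sign changes within replicate numbers, added after the data were seen, cannot go below 0.25. The 3 RIPs share the same Input libraries. The count ratio of Ank2 to Ank3 was 2.26, 2.21 and 2.12 in Input, 2.28, 2.60 and 2.30 with YTHDF1 and 2.09, 2.10 and 2.07 with YTHDF2. The groups did not overlap, but the differences were small, at 0.12 and -0.07 on the log2 scale (exact permutation p = 0.1 for both), and the first was 0.061 without YTHDF1 replicate 2. In the YTHDF3 RIP the ratio was 2.18, 2.26 and 1.96, and it overlapped with Input (-0.04, exact permutation p = 0.6). The ankyrin mRNAs thus kept nearly the same proportion in the precipitates as in the lysate.

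Of the spectrin chains, the ratio of Sptb to Sptbn1 lay further from Input than that of the ankyrins in all 3 RIPs. The ratio of Sptan1 to Sptbn1 did so with YTHDF2 only. The ratio of Sptb to Sptbn1, the erythroid-type against the brain-type beta chain, was 0.0723, 0.0843 and 0.0526 in Input, against 0.0300, 0.0129 and 0.0408 with YTHDF1. Every YTHDF1 library was below every Input library, and the log2 difference was -1.45 (exact permutation p = 0.1). Its size depended on single libraries, at -0.97 without YTHDF1 replicate 2 and -1.80 without YTHDF1 replicate 3. The YTHDF2 and YTHDF3 libraries overlapped with Input, at -0.30 and -0.23 (exact permutation p = 0.4 for both). With YTHDF3 the ratio was 0.0662, 0.0668 and 0.0445, below the Input library of the same number in all 3 (exact p within numbers = 0.25). The ratio of Sptan1 to Sptbn1, alpha against beta chain, was 0.892, 0.914 and 0.981 in Input, against 1.22, 1.49 and 1.06 with YTHDF2, all above Input (log2 difference 0.42, exact permutation p = 0.1). It overlapped with Input in the YTHDF1 RIP at 1.04, 0.952 and 0.813 (log2 difference 0.0035). In the YTHDF3 RIP it also overlapped, at 0.890, 0.880 and 0.981 (log2 difference -0.019).

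Among the Epb41 genes, the ratio of Epb41l1 to Epb41l3 lay on opposite sides of Input with YTHDF1 and YTHDF3. It was 3.06, 3.04 and 3.76 in Input, 3.01, 2.55 and 1.93 with YTHDF1 and 4.74, 5.13 and 7.38 with YTHDF3. All YTHDF1 libraries lay below and all YTHDF3 libraries above Input, with log2 differences of -0.41 and 0.79 (exact permutation p = 0.1 for both). Without YTHDF1 replicate 3 the first was -0.24. In the YTHDF2 RIP it was 4.85, 5.17 and 3.59, which overlapped with Input (0.46, exact permutation p = 0.2). The ratio of Epb41l2 to Epb41l3 ran from 0.233 to 0.698 in Input, against 0.132 to 0.236 with YTHDF1 (log2 difference -1.27, exact permutation p = 0.2). Its Input libraries spread with the astrocyte markers, being lowest in replicate 1 and highest in replicate 3 for both. The summed neuronal markers ran the other way, at 4285, 3304 and 2664 CPM in Input replicates 1, 2 and 3. The parts of astrocyte and of neuronal RNA in this ratio were not tested.

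**Figure D5:**
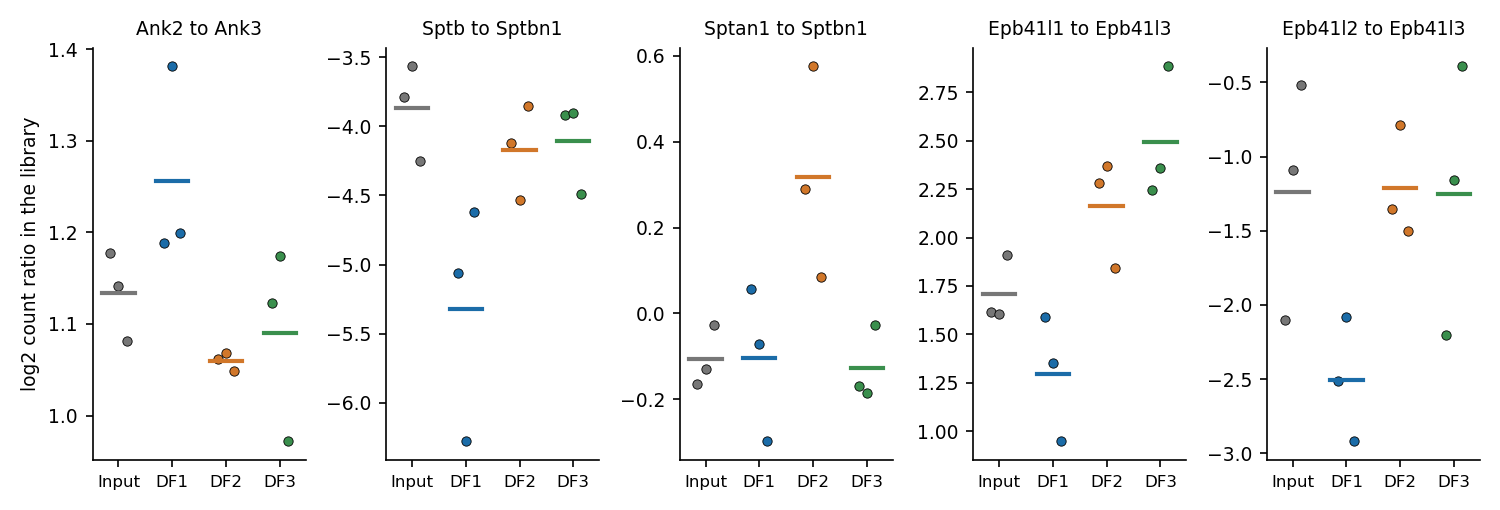
Count ratios within a library (y axis, log2 scale) for the 5 pairs of mRNAs in Input and the 3 RIPs (x axis). Points are libraries and lines the means (n = 3 per group). The log2 ratio of Ank2 to Ank3 stays between 0.97 and 1.38 in all 12 libraries. That of Sptb to Sptbn1 drops in the YTHDF1 RIP and that of Epb41l1 to Epb41l3 rises in the YTHDF3 RIP.

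The rest of the membrane skeleton was described in the same comparisons. Of 19 further genes of the membrane skeleton 17 were tested (Epb42 and Tmod4 were too low). These 17 include Sptbn5, which passed the limit for testing through the RIPs. The medians, and each enriched number that holds Sptbn5, are thus partly set by this limit. With YTHDF1, 7 were enriched and 2 depleted (27.5% and 26.1% of all genes), with a median log2 fold change of 0.43. With YTHDF2, 5 were enriched and 2 depleted (16.1% and 19.3% of all genes, median 0.42), and with YTHDF3 4 were enriched and 0 depleted (16.7% and 23.2% of all genes, median 0.43). With the length curve taken out, 2 were enriched and 4 depleted with YTHDF1, 2 and 2 with YTHDF2 and 2 and 2 with YTHDF3. Of all genes 22.4%, 13.2% and 15.5% were then enriched and 24.8%, 16.6% and 16.9% depleted in these RIPs. The neuronal beta spectrin Sptbn4, which sits at the axon initial segment and nodes, was enriched in all 3 RIPs, at 2.39 ± 0.27 (adjusted p = 3.75e-05), 2.10 ± 0.26 (adjusted p = 0.000350) and 1.22 ± 0.26 (adjusted p = 0.00303). The beta spectrin gene Sptbn5 was named by the rule as well, but its Input libraries held 0.229 to 0.586 CPM and it passed the limit for testing through the RIPs, so no fold change is given. It stood at 0.854 to 5.73 CPM with YTHDF1, 1.99 to 6.17 CPM with YTHDF2 and 0.854 to 1.96 CPM with YTHDF3. With YTHDF3, Ank1 and Add2 were among the genes called, at 1.09 ± 0.37 and 0.71 ± 0.20. The depleted genes were Mpp1, a scaffold protein of the red cell membrane, at -0.44 ± 0.17 with YTHDF1 and -0.52 ± 0.17 with YTHDF2, and the actin-capping tropomodulins Tmod3 (-0.87 ± 0.28 with YTHDF1) and Tmod2 (-1.45 ± 0.31 with YTHDF2).

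Of 16 genes for proteins that ankyrins anchor or that share the axon initial segment and junctions, 10 were enriched and 0 depleted with YTHDF1 (27.5% and 26.1% of all genes), with a median log2 fold change of 1.12. With the length curve taken out 4 were enriched and 1 depleted, where 22.4% and 24.8% of all genes were. The adhesion molecule Chl1 was at 3.20 ± 0.44 (adjusted p = 0.000139) and the microtubule minus-end protein Camsap2 at 1.89 ± 0.27 (adjusted p = 0.000189), while Nfasc, the adhesion molecule neurofascin, was the lowest called at 0.72 ± 0.18. With YTHDF3, 6 were enriched and 0 depleted (16.7% and 23.2% of all genes, median 0.60), and 2 and 0 with the length curve taken out (15.5% and 16.9% of all genes). The 6 were led by the sodium channel Scn2a at 1.31 ± 0.44 (adjusted p = 0.0333) and Camsap2 at 1.20 ± 0.27 (adjusted p = 0.00423), with Nfasc (0.76 ± 0.18) and Trim46 (0.60 ± 0.18), which bundles axonal microtubules, lowest. With YTHDF2, 0 of the 16 were called by edgeR (median 0.34), where 16.1% of all genes were enriched and 19.3% depleted. An unadjusted p under 0.05 was found for 2 of them and for 45.5% of all genes, and DESeq2 called 1 of them and 39.1% of all genes.

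The likeness of the 8 mRNAs over the 12 libraries was described by Pearson's r of log2 CPM, without a test, because the libraries share groups and scaling. Over the 28 pairs of members r ran from 0.135 to 0.996 with a median of 0.721. Ank2 and Ank3 were most alike at 0.996, and Sptbn1 came close to both, at 0.994 with Ank3. Sptan1 was nearest to Sptbn1 at 0.960. Epb41l3 was nearest to Ank2 (0.852), Epb41l1 to Ank3 (0.817) and Sptb to Epb41l1 (0.769), while Epb41l2 reached no more than 0.299 with any other member. Among 9617 protein-coding genes outside the list, the most alike were Rapgef2 and Ascc3 for Ank2 (0.997 and 0.995) and Heatr5b and Mga for Ank3 (0.996 and 0.995), and, for Sptan1, Irf2bpl was among them (0.991). For Sptbn1 they were Rapgef2 and Ylpm1 (0.995 and 0.993), for Sptb Clmn and Prickle2 (0.980 and 0.976) and for Epb41l1 Arfgef1 and Atrn (0.981 and 0.975). For Epb41l3 they were Nr6a1 and Zfp941 (0.983 and 0.982) and for Epb41l2 Klf3 and Golim4 (0.903 and 0.860).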

How the data were processed

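Fragment counts per gene of 12 libraries (6020072 to 38909592 counts each) were analysed as deposited. The authors extracted UMIs with UMI-tools 1.1.1, trimmed with cutadapt 3.4, aligned to mm10 (GRCm38) with STAR 2.7.7a and counted exons by strand with featureCounts 2.0.1 on Ensembl 97, with multi-mapping and multi-overlapping fragments counted, so reads shared with near-identical copies may count more than once. Their deposited comparison tables (log2 fold changes and p-values) were used only for gene names and biotypes. Genes whose normalized counts averaged 10 or more were scaled by TMM and fitted with edgeR 4.0.16 (R 4.3.3), quasi-likelihood test, 4 groups and 12 libraries in 1 model, with Benjamini-Hochberg adjustment over all genes tested. Log2 fold changes are given ± SE, intervals are 95%, and log2 CPM used a prior count of 2. A length curve was a loess fit (span 0.3) of each library against mean Input by exonic length. Every gene of the list was described, and of further lists the 2 highest and 2 lowest genes called in each RIP were named. Some genes that this rule or the likeness would name are not reported here. For likeness, genes with a mean count of at least 100 were compared. The members, lists and tests were chosen with earlier results of these data known. The labels number the replicates without naming cultures for each, so p-values measure the spread between these samples. By the methods, the RIPs of a replicate and its Input came from 1 lysate. Replicates of YTHDF3 and Input with the same number deviated together (correlation of deviations from the group means 0.835, 0.539 and 0.812). The other RIPs did not do so with Input in all 3 numbers. Their correlations with Input were 0.0895, -0.269 and -0.329 for YTHDF1 and 0.186, -0.326 and -0.318 for YTHDF2. Whether equal numbers stand for the same lysate in each group was not tested. The test was run on simulated data with known changes first. DESeq2 1.42.0, other scalings and filters, replicate blocks, removal of the length curve and leaving out each library were tried as alternatives. Figures were drawn with matplotlib 3.10.9 in Python 3.11.15.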

Additional observations from a re-analysis of the deposited data

How the results depend on the processing

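Relative to Input, every mRNA called (6 with YTHDF1, 4 with YTHDF2 and 5 with YTHDF3) kept its direction under TMM, median-ratio and library-size scaling. Among values for single mRNAs, 261 of those from leaving out 1 library kept direction and call, 15 lost and 2 gained a call and 10 changed sign; for other settings the numbers were 437, 58, 11 and 22. The cause of each change was not tested. The 3 libraries per group limit the precision, and no precipitation with a control antibody bounds unspecific recovery.

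By the study's methods the RIPs of a replicate shared 1 lysate, while same-numbered libraries deviated together at r over 0.1 in all 3 numbers only for YTHDF3 and Input. With the replicate block in the fit of 12 libraries, the numbers of mRNAs called stayed at 6, 4 and 5 against Input and 4, 4 and 0 between RIPs. Fits of 2 groups with the replicate block called 4 mRNAs for YTHDF1, 2 for YTHDF2, 8 for YTHDF3 and 0 for YTHDF1 against YTHDF3. With the length curve removed, with or without the replicate block, 1 mRNA was depleted with YTHDF1, 1 was enriched with YTHDF2, 3 were enriched with YTHDF3 (Ank2, Ank3 and Sptan1 without the block, Ank3, Sptan1 and Epb41l1 with it) and 0 differed for YTHDF1 against YTHDF2 or YTHDF3. The ratios, tested within replicate numbers after the data were seen, had exact p from 0.25 to 1, and 0.25 is the smallest possible. With the length curve removed and the replicate block together, 1 mRNA was depleted with YTHDF2. Without a filter 1 mRNA was enriched with YTHDF2. For YTHDF1 against YTHDF3, 2 were called with median-ratio size factors, protein-coding TMM, DESeq2, no filter, a minimum mean of 50 or only the 2 groups, and 0 with library size alone. For YTHDF2 against YTHDF3, 1 was lower with library size alone and with no filter. Leaving out 1 library gave 2 to 4 enriched mRNAs for YTHDF2 and 1 to 4 for YTHDF1 against YTHDF3.

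Signs changed only for values that were not called in the reported fit. With the length curve removed, without and with the replicate block, Sptb was at -0.12 and -0.21 and Epb41l2 at -0.85 and -0.83 for YTHDF1 against Input, Epb41l1 at -0.11 and -0.091 for YTHDF2, and Epb41l2 at -0.21 and -0.21 and Epb41l3 at -0.17 and -0.17 for YTHDF3. For YTHDF1 against YTHDF2, Sptb was at -0.27 and -0.29 and Epb41l2 at -0.30 and -0.30. With library size alone Epb41l2 was at -0.25 for YTHDF1 against Input (-0.072 with protein-coding TMM), and Sptb at -0.088 and Epb41l2 at -0.18 for YTHDF1 against YTHDF2. Sptan1 for YTHDF2 against YTHDF3 was at -0.15 with library size alone, -0.13 without a filter and -0.016 and -0.017 in fits of 2 groups without and with the block. Leaving out 1 library, Epb41l2 ran from -0.031 to 0.30 for YTHDF1 and Epb41l3 from -0.39 to 0.092 for YTHDF2 against Input, and Sptb from -0.29 to 0.67 for YTHDF1 against YTHDF2. For YTHDF1 against YTHDF3, Sptb ran from -0.74 to 0.22 and Epb41l1 from -0.42 to 0.021. The log2 ratio of Ank2 to Ank3 ran from -0.086 to 0.015 for YTHDF3, that of Sptan1 to Sptbn1 from -0.077 to 0.10 for YTHDF1 and -0.069 to 0.021 for YTHDF3, and that of Epb41l2 to Epb41l3 from -0.41 to 0.38 for YTHDF2 and -0.45 to 0.46 for YTHDF3.

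Library size alone moved the median over all genes to -0.38, 0.09 and 0.38 for YTHDF1, YTHDF2 and YTHDF3, from 0.02, 0.02 and 0.05 on the log2 scale, and the share of enriched among called genes from 51.3%, 45.5% and 41.9% to 33.4%, 48.9% and 61.7%. Protein-coding TMM moved the medians to -0.22, -0.09 and 0.01 and gave shares of 40.1%, 36.8% and 39.1%. Between RIPs the shares of higher calls were 65.1%, 75.2% and 77.2% for YTHDF1 against YTHDF2, YTHDF1 against YTHDF3 and YTHDF2 against YTHDF3, 27.9%, 18.3% and 39.6% with library size alone and 53.9%, 58.8% and 68.3% with protein-coding TMM. Over all genes, library size alone changed the number enriched with YTHDF1 from 4624 to 3073 and with YTHDF3 from 2812 to 4821, and the numbers higher and lower for YTHDF1 against YTHDF3 from 1842 and 609 to 762 and 3393. Fits of 2 groups with the block gave 2390 enriched genes for YTHDF1 and 6144 for YTHDF3, and 328 and 101 for YTHDF1 against YTHDF3. It also gave 294 higher and 98 lower genes for YTHDF2 against YTHDF3, where the reported fit gave 668 and 197. Library size alone changed the numbers for YTHDF1 against YTHDF2 from 1925 and 1031 to 1063 and 2752 and the lower genes for YTHDF2 against YTHDF3 to 718. For YTHDF1 against YTHDF3, the higher genes were 1219 at a minimum mean of 50 and 892 with only the 2 groups, the lower genes 951 with protein-coding TMM and 1174 without a filter, and both 1189 and 988 with the length curve removed (1102 and 968 with the block). For YTHDF2 against YTHDF3, the lower genes were 346 with DESeq2 and 428 with only the 2 groups, and both 1043 and 769 without a filter and 432 and 307 with the length curve removed (higher 358 with the block). Without YTHDF1 replicate 2 the lower genes were 1945 for YTHDF1 against YTHDF2 and 1001 against YTHDF3, and leaving out any 1 library of YTHDF2 or YTHDF3 gave 114 to 350 higher genes for YTHDF2 against YTHDF3.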
